A study of Mus musculus with 4 samples.

Results

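PT-S2/S3 is the authors' name for 1 of 17 clusters of mouse kidney nuclei, a proximal tubule cluster named for its S2 and S3 segments. It was taken as the column of averages with that name, and its profile is described here across all genes and set first against the clusters PT-S1, PT-S2 and PT-S3-2. Of 24468 genes listed, 19331 had at least 1 unique molecular identifier (UMI, a tag that counts 1 captured RNA molecule) in PT-S2/S3, and 7664 had at least 100. The cluster held 7425098 UMIs, 20.6% of those in the 17 clusters and 31.2% of those in the 6 proximal tubule clusters, more than any other cluster.

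The nuclei came from kidney cortex with outer medulla of male C57BL/6 mice. The untreated group is CT9w, and the group Cis9w was given cisplatin, a platinum chemotherapy drug that is toxic to proximal tubule, in 4 weekly injections of 8 mg/kg, with kidneys taken 9 weeks after the first. Each group had 2 samples, 4 in all. The labels tie the samples numbered 2 to the table of cluster averages and those numbered 1 to the table of the 2 groups used at the end, but no label or header says if both samples of a group entered each table, so the tables may or may not share animals. The sources used here name no other strain or allele and no age. Each cluster has 1 average, not split by group, and the sources used here give neither the number of nuclei nor the share of each group in PT-S2/S3. There is thus no spread between replicates, and no test was made. Intervals in the text are 95% intervals (exact Clopper-Pearson) of a ratio of averages, from the UMIs behind both, and cover counting error only.

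The proximal tubule reclaims most of the filtrate and runs through 3 segments. The first segment takes up the bulk of glucose, amino acids and filtered protein through high-capacity sodium-coupled carriers and endocytic receptors. The second is known for uptake and secretion of organic anions, with drug-metabolising enzymes, and the third, in the outer medulla, for high-affinity carriers, peroxisomes and, in mice, many genes that differ between the sexes. Values are averages in size-factor-scaled UMIs per nucleus and were compared for the same gene between clusters, since the averages are not per length.

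The name was first checked against 5 marker genes: Dpys (dihydropyrimidinase, of pyrimidine breakdown), Slco1a1 (an organic anion transporting polypeptide), Slc22a6 (organic anion transporter OAT1) and the cytochrome P450 genes Cyp4b1 and Cyp2e1. Promoters of 3 of them are shown because the genes share the cluster but not the matched letters. Each is the 250 bases before the RefSeq start (GRCm38.p6, the assembly also called mm10), 5′ to 3′ on the gene's strand, with motif matches in capitals.

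Slc22a6, chr19:8617746-8617995, plus strand: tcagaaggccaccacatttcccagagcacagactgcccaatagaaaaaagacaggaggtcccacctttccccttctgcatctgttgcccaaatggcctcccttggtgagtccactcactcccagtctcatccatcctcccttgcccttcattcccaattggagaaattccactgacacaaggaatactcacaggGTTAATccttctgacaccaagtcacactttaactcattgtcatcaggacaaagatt
Slco1a1, chr6:141946963-141947212, minus strand: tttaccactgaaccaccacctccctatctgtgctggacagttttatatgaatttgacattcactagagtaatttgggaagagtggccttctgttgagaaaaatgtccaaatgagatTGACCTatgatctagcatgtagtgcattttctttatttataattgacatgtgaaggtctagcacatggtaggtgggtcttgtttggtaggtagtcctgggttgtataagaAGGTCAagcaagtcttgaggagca
Cyp4b1, chr4:115647722-115647971, minus strand: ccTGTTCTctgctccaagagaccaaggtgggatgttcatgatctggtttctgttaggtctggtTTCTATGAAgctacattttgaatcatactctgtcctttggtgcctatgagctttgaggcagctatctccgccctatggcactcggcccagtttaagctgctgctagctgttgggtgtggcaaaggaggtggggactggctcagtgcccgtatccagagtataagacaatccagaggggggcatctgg

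The capitals in Slc22a6 mark GTTAAT, a half-site of the hepatocyte nuclear factor 1 family, found on either strand in 6.44% of 32817 promoters of the same length. Those in Slco1a1 mark 2 copies of AGGTCA, 1 on each strand, the half-site of many nuclear receptors, found in 4604 promoters. In Cyp4b1 they mark TTCNNNGAA, the core of STAT sites, found in 7.01% of promoters, and the androgen receptor half-site AGAACA on the opposite strand, found in 16.1%. The matches in these 3 promoters do not overlap each other. The promoter of Cyp2e1 held none of these motifs nor CAAAGTCC, the half-site searched for HNF4, and for Dpys no promoter is shown. A match is a run of letters and was not tested as a binding site.

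All 5 markers were highest in PT-S2/S3 among the 6 proximal tubule clusters, where 8.83% of the 7664 genes with 100 UMIs were. Every gene was open to the clustering, so these levels describe the cluster and support nothing further. Dpys averaged 0.226 in PT-S2/S3, 0.0957 in PT-S2, 0.0511 in PT-S3-1, with 0.0198 for PT-S3-2 and 0.0104 for PT-S1, and its ratio to PT-S2 was 2.36 (interval 2.03 to 2.77). Slco1a1 averaged 0.272 in PT-S2/S3, 0.159 in PT-S3-1 and 0.0681 in PT-S3-2, while PT-S1 had 0.0107 and PT-S2 had 0.00986. Its ratio to PT-S2 was 27.6 (interval 17.9 to 44.7), and PT-S3-1 was the next highest of the proximal tubule clusters. For the other 3, PT-S2 was the next highest. Slc22a6 averaged 0.512 in PT-S2/S3 and 0.375 in PT-S2, a ratio of 1.36 (interval 1.26 to 1.48), with 0.164 in PT-S3-1 and 0.0478 in PT-S3-2. Cyp2e1 averaged 0.496 in PT-S2/S3 and 0.315 in PT-S2, with 0.232 in PT-S3-1 and 0.0346 in PT-S3-2. Cyp4b1 averaged 4.66 in PT-S2/S3, 3.73 in PT-S2, 1.90 in PT-S1, 1.69 in PT-S3-1 and 0.657 in PT-S3-2. Outside the 6 proximal tubule clusters the markers were highest in mixed-2, a small cluster of 254460 UMIs, where Slco1a1 averaged 0.158 and Cyp2e1 0.339.

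**Figure D1:**
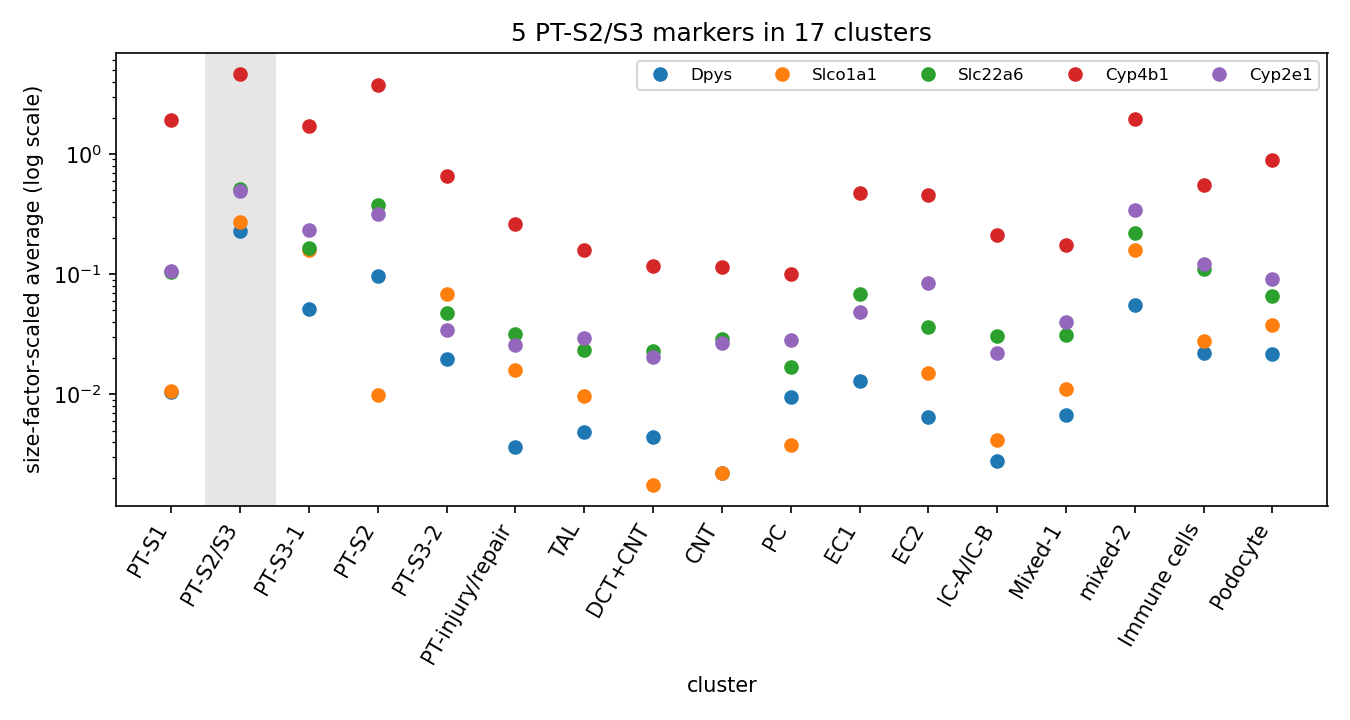
Averages of the 5 marker genes (size-factor-scaled UMIs per nucleus, log axis) in the 17 clusters, 1 point per gene and cluster, with PT-S2/S3 shaded and averages of 0 not drawn. Each gene is highest in PT-S2/S3, and Slco1a1 lies at 0.00986 in PT-S2 against 0.272 in PT-S2/S3.

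Few genes belonged to PT-S2/S3 by a wide margin. It had the highest average of all 17 clusters for 320 genes, 4.18% of those with 100 UMIs. Only 4 of them were at least 2-fold over each of the other 16 clusters: 0610031O16Rik, Dpys, Gm33906 and Adh7, an alcohol dehydrogenase gene. For Dpys alone was the lower bound of the interval past 2-fold. Against the other 5 proximal tubule clusters, 23 genes led by at least 1.5-fold. By the same rule in their own columns PT-S1 had 152 leading genes, PT-S2 had 4, PT-S3-2 had 106, PT-S3-1 had 148 and PT-injury/repair had 768. The last gene inside that limit was the homeobox gene Irx3, at 1.51-fold, and the first outside was Utp20, of ribosomal RNA processing, at 1.48-fold. The next highest proximal tubule cluster behind the 677 genes that were highest in PT-S2/S3 was PT-S2 for 282, PT-S3-2 for 160, PT-S3-1 for 118, PT-S1 for 65 and PT-injury/repair for 52.

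Several of the 23 leading genes lie in pairs on the genome (GENCODE M21, GRCm38). Adh7 (chr3:138217760-138233382, plus strand) lies inside 0610031O16Rik (chr3:138210716-138240405), annotated as antisense to it. Adh7 averaged 0.0860 in PT-S2/S3 and 0.0391 in PT-S3-1, and 0610031O16Rik 0.0368 and 0.0150. Gm33906 (chr14:123043282-123265002, plus strand), a long noncoding transcript, neighbours Nalcn (chr14:123276634-123627144, minus strand), which encodes a sodium leak channel. Gm33906 averaged 0.147 in PT-S2/S3, 0.0466 in PT-S3-1 and 0.00296 in PT-S1, and Nalcn averaged 0.0411, 0.0241 and 0.00148. March1, a ubiquitin ligase gene, averaged 0.936 in PT-S2/S3 and 0.594 in PT-S2, and Gm15354, antisense within it, averaged 0.115 and 0.0544. The sources used here do not say if the counting used strand, so reads of an antisense pair may not be told apart. The other leading genes included Camk4, a calmodulin-dependent kinase gene, at 4.17-fold over PT-S3-1 on 9 UMIs there (interval 2.16 to 9.26), and Degs2, a sphingolipid desaturase gene, at 2.11-fold over PT-S2.

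Across 9030 genes with 100 UMIs in any cluster, the log2 averages of PT-S2/S3 were most like those of PT-S2, with a Pearson r of 0.975. PT-S3-2 followed at 0.931, PT-S1 at 0.925 and PT-S3-1 at 0.922, then mixed-2 at 0.749 and PT-injury/repair at 0.725, with Mixed-1 last at 0.479. These are correlations across genes, which are not replicates, and clusters of 1 data set share libraries. Within 2-fold of PT-S2/S3 lay 96.4% of genes in PT-S2, 89.9% in PT-S3-2, with 89.6% for PT-S3-1 and 89.5% for PT-S1, against 68.9% in PT-injury/repair. Each share is over genes with 100 UMIs in the higher cluster of the pair, from 5231 for PT-S3-1 to 7657 for PT-S1. The sets differ with depth, so the shares do not rank likeness.

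Genes that separate the first from the third segment placed PT-S2/S3 midway. For the 677 genes at least 4-fold apart between PT-S1 and PT-S3-2 (a different set from the 677 above), a place of 0 is the level of PT-S1 and 1 that of PT-S3-2 on the log2 scale. The median place of PT-S2/S3 was 0.518 (quartiles 0.313 and 0.741), with PT-S2 at 0.209 and PT-S3-1 at 0.776. PT-S2/S3 was within the range of both ends for all but 22 genes below 0 and 32 above 1. The order PT-S1, PT-S2, PT-S2/S3, PT-S3-2 was kept without a break by 551 genes, 81.4% of the 677.

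**Figure D2:**
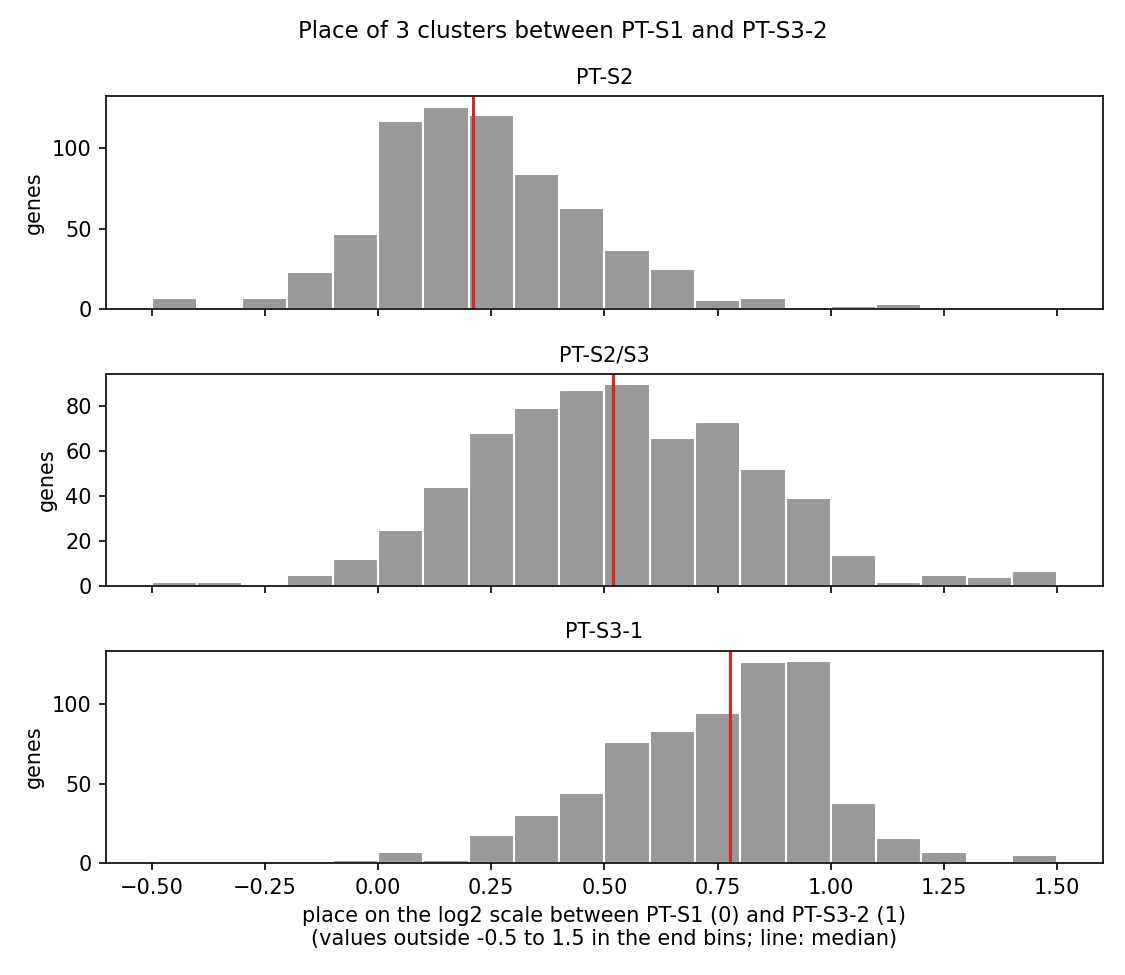
Number of genes by place on the log2 scale between PT-S1 (0) and PT-S3-2 (1), for PT-S2, PT-S2/S3 and PT-S3-1, with the median as a line. The medians are 0.209, 0.518 and 0.776, and the places of PT-S2/S3 spread widely over the range.

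Markers of the first segment were lower in PT-S2/S3 than in PT-S1 and higher than in PT-S3-2. Of 8 first-segment markers, 7 were at least 2-fold lower than in PT-S1, where 4.44% of 7657 genes were, and 6 were lower than in PT-S2, where 1.38% of 7106 were. All 8 were at least 2-fold higher than in PT-S3-2, where 5.62% of 6974 genes were. Slc5a12, a sodium-coupled lactate carrier, showed the steepest drop: it averaged 14.7 in PT-S1, 6.93 in PT-S2, 0.429 in PT-S2/S3, 0.842 in PT-S3-1 and 0.119 in PT-S3-2. It was 16.1-fold lower in PT-S2/S3 than in PT-S2 (interval 15.3 to 17.0). Slc5a2, the low-affinity glucose cotransporter SGLT2, averaged 1.09 in PT-S1, 0.298 in PT-S2 and 0.0411 in PT-S2/S3. Slc4a4, the basolateral bicarbonate exit carrier, changed least, with 7.45 in PT-S1, 5.85 in PT-S2, 4.28 in PT-S2/S3 and 1.27 in PT-S3-2. Outside these markers, Angpt1, an angiopoietin ligand, averaged 1.30 in PT-S1, 0.224 in PT-S2 and 0.0284 in PT-S2/S3.

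Markers of the third segment differed in how far they were present. Of the 8 with 100 UMIs in the pair, all were at least 2-fold higher than in PT-S1, where 6.03% of genes were, and 6 were higher than in PT-S2, where 2.18% were. Against PT-S3-2, 7 of 10 were at least 2-fold lower, where 4.52% of genes were. Slc7a13, a cystine and aspartate carrier, averaged 0.0567 in PT-S1, 0.181 in PT-S2, 2.21 in PT-S2/S3 and 5.08 in PT-S3-2, so it was 12.2-fold higher in PT-S2/S3 than in PT-S2 and 2.30-fold lower than in PT-S3-2. Slc5a8, a monocarboxylate carrier, was nearer the third-segment level, with 0.246 in PT-S2, 0.793 in PT-S2/S3 and 1.17 in PT-S3-1, and it was 1.52-fold lower in PT-S2/S3 than in PT-S3-2, within the 2-fold limit. Cyp7b1, an oxysterol hydroxylase gene, was far from it: it averaged 0.0244 in PT-S2, 0.133 in PT-S2/S3, 4.29 in PT-S3-1 and 4.76 in PT-S3-2, which is 36.0-fold lower in PT-S2/S3 than in PT-S3-2 (interval 32.8 to 39.5). Bcat1, a branched-chain aminotransferase gene, averaged 0.00622 in PT-S2/S3 and 0.301 in PT-S3-2, and Adgrb3, an adhesion receptor gene, 0.0462 and 1.18. Slc22a30, an organic anion carrier of the same list, was highest in PT-S2/S3, at 2.01.

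**Figure D3:**
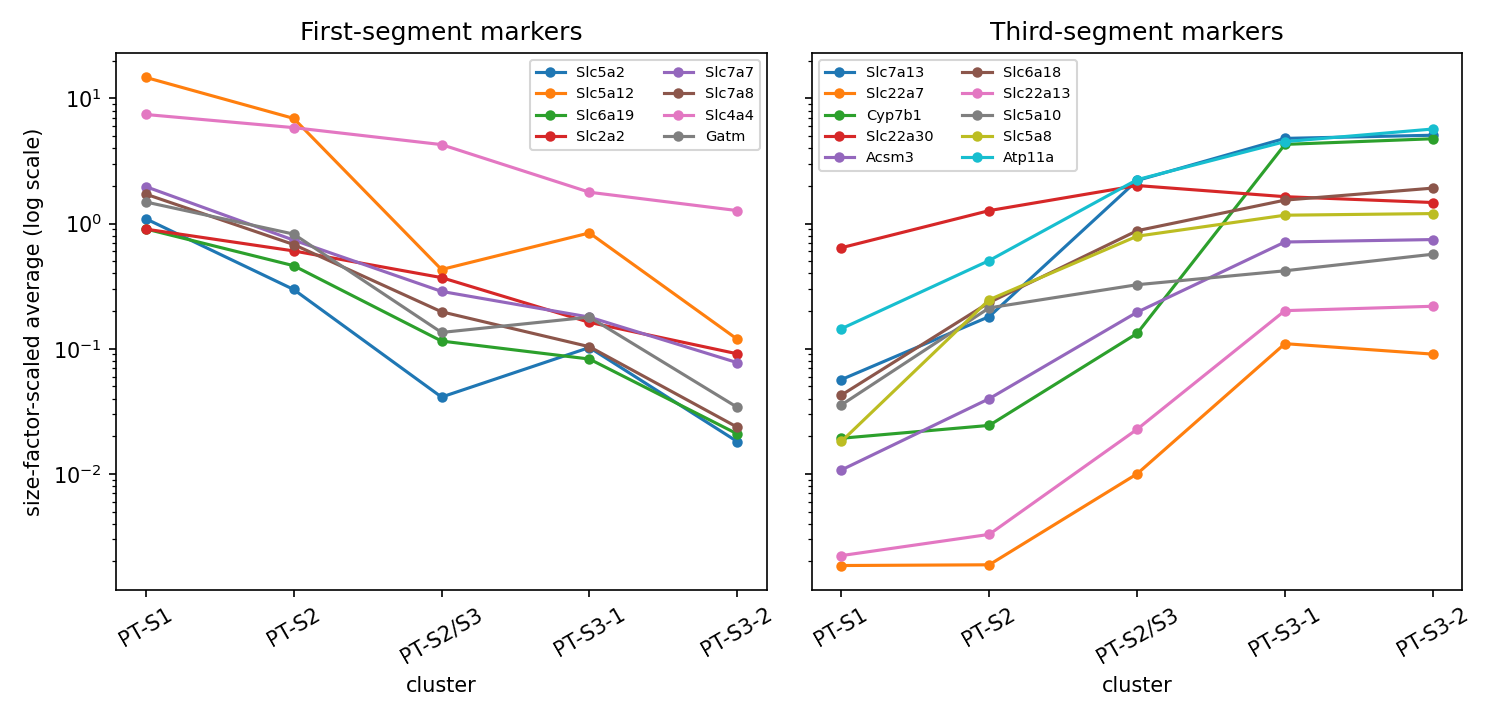
Averages (size-factor-scaled UMIs per nucleus, log axis) of 8 first-segment and 10 third-segment markers in 5 proximal tubule clusters, 1 line per gene; lines join clusters and are not a time course. Slc5a12 falls from 6.93 in PT-S2 to 0.429 in PT-S2/S3, while Cyp7b1 stays at 0.133 in PT-S2/S3 and is 4.76 in PT-S3-2.

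More second-segment markers were at least 2-fold higher than in PT-S3-2 than were so against PT-S2. Of 8, 4 of which are also among the 5 markers above, 6 were at least 2-fold higher than in PT-S3-2, where 5.62% of all genes were, and 2 than in PT-S2, where 2.18% were. The 4 shared genes are all among the 6, and Dpys is among the 2. They are markers of PT-S2/S3 and highest in it, so their part in these counts supports nothing further. Slc22a8, the organic anion transporter OAT3, averaged 0.945 in PT-S2, 0.709 in PT-S1, 0.677 in PT-S2/S3 and 0.0329 in PT-S3-2. Slc13a3, a dicarboxylate carrier, averaged 2.42 in PT-S2, 2.17 in PT-S2/S3 and 0.323 in PT-S3-2. Fmo5, a flavin monooxygenase gene, ran the other way, with 0.128 in PT-S2, 0.286 in PT-S2/S3 and 0.428 in PT-S3-2. So did Slc6a13 of the same list, whose place between PT-S1 and PT-S3-2 was 0.357 in PT-S2 and 0.609 in PT-S2/S3.

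Lists of genes by role, chosen with earlier results known, were then read in the same way. They held 294 different genes, of which 251 had 100 UMIs in PT-S2/S3, and 54 of these were highest there among the proximal tubule clusters, where 8.83% of all genes were. The 54 include all 5 markers of the cluster. Slco1a1 and Slc22a6 are on the organic ion transporter list, Cyp4b1 and Cyp2e1 on the P450 list. Dpys is on the list of amino acid and nucleotide catabolism. Their part in the counts of these lists supports nothing further. Over all genes, 6.03% were at least 2-fold higher and 4.44% lower than in PT-S1, and 2.18% and 1.38% than in PT-S2. Of 33 P450, flavin monooxygenase and carboxylesterase genes, 29 had 100 UMIs in PT-S2/S3 and 12 were highest there. Of the 30 with 100 UMIs in the pair, 17 were at least 2-fold higher than in PT-S1 and 3 lower, with a median log2 ratio of 1.21 against 0.03 over all genes. Cyp2j5, an arachidonic acid epoxygenase gene, averaged 3.48 in PT-S2/S3, 3.25 in PT-S2 and 2.77 in PT-S1. Cyp2j13 averaged 1.74 in PT-S2/S3 and 0.346 in PT-S3-2. The carboxylesterase gene Ces1f averaged 0.993 in PT-S2/S3 and 0.329 in PT-S1. Cyp27b1, which makes active vitamin D, had 10 UMIs in PT-S2/S3, an average of 0.00270 against 0.0545 in PT-S1.

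Of 32 organic ion transporter genes, 24 had 100 UMIs in PT-S2/S3 and 10 were highest there, against 8.83% of all genes. Against PT-S1, 10 of 25 were at least 2-fold higher, where 6.03% of all genes were, and 2 lower, where 4.44% were. Against PT-S2, 2 were higher and 2 lower, where 2.18% and 1.38% were. Slco1a6 averaged 4.17 in PT-S2/S3, 4.01 in PT-S3-2, 2.83 in PT-S2 and 1.94 in PT-S1. Slc47a1, the proton-coupled exporter MATE1, was nearly level, from 1.86 in PT-S1 to 2.53 in PT-S2/S3. Slco3a1 separated the early clusters, with 0.127 in PT-S1, 0.932 in PT-S2 and 1.79 in PT-S2/S3. Slc22a23, an orphan member of the family, averaged 2.04 in PT-S1 and 0.696 in PT-S2/S3.

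Of 40 fatty acid oxidation and peroxisome genes, 37 had 100 UMIs in PT-S2/S3 and 13 were highest there, against 8.83% of all genes. Against PT-S1, 12 of 37 were at least 2-fold higher, where 6.03% of all genes were, and 1 lower, where 4.44% were. Against PT-S2, 0 of 36 were higher and 1 lower, near the 2.18% and 1.38% of all genes. Acaa1b, a peroxisomal thiolase gene, averaged 0.549 in PT-S2/S3, 0.381 in PT-S3-1, 0.366 in PT-S2 and 0.133 in PT-S1.

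Reabsorption genes differed from PT-S1 both ways. Of 21 sugar, phosphate, carboxylate and sulphate transporter genes, 5 were at least 2-fold higher and 4 lower than in PT-S1, where 6.03% and 4.44% of all genes were. Of 17 amino acid and peptide transporter genes, 5 were higher and 6 lower. Slc34a1, the main sodium-phosphate cotransporter, averaged 12.4 in PT-S1, 11.2 in PT-S2, 9.38 in PT-S2/S3 and 0.916 in PT-S3-2. Slc5a1, the high-affinity glucose cotransporter SGLT1, averaged 0.00370 in PT-S1, 0.0746 in PT-S2, 0.128 in PT-S2/S3 and 0.0972 in PT-S3-2. None of 14 endocytosis genes was at least 2-fold higher or lower than in PT-S1 or PT-S2, a count near the shares over all genes of 6.03% and 4.44% against PT-S1 and 2.18% and 1.38% against PT-S2. Lrp2, the megalin receptor, averaged 5.70 in PT-S2/S3, between 3.55 in PT-S3-1 and 5.83 in PT-S2. Dab2, its adaptor, averaged 10.0 in PT-S1, 7.04 in PT-S2/S3 and 1.13 in PT-S3-2.

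Of 14 gluconeogenesis and fructose genes, 13 had 100 UMIs in the pair with PT-S1 and 1 of these was at least 2-fold higher than there, near the 6.03% of all genes. G6pc, the last step of glucose release, averaged 1.03 in PT-S1, 0.564 in PT-S2/S3 and 0.0774 in PT-S3-2. Among amino acid and nucleotide catabolism genes, 6 of 32 were higher and 4 lower than in PT-S1, where 6.03% and 4.44% of all genes were. Hpd, a tyrosine breakdown enzyme, averaged 0.0152 in PT-S1, 0.0760 in PT-S2, 0.148 in PT-S2/S3 and 0.155 in PT-S3-2. Of 30 conjugation enzyme genes, 23 had 100 UMIs in the pair with PT-S1, 7 of these were at least 2-fold higher and 0 lower, against the same shares. Ugt8a, a ceramide galactosyltransferase gene, averaged 0.705 in PT-S2/S3, 0.469 in PT-S2 and 0.116 in PT-S1.

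Of 28 transcription factor and nuclear receptor genes, 27 had 100 UMIs in the pair with PT-S2, and none of these was at least 2-fold higher or lower than there, near the 2.18% and 1.38% of all genes. Against PT-S3-2, 4 of 27 were higher, where 5.62% of all genes were, and 1 lower, where 4.52% were. Bnc2, a zinc finger gene, had the widest ratio of them, with 2.79 in PT-S2/S3 and 0.112 in PT-S3-2. Of 13 hormone and growth factor receptor genes with 100 UMIs in the pair, 3 were higher and 2 lower than in PT-S3-2, against the same shares. They include Ghr, the growth hormone receptor, which averaged 5.63 in PT-S1, 9.23 in PT-S2, 17.5 in PT-S2/S3 and 46.8 in PT-S3-2. Prlr, the prolactin receptor, averaged 0.113 in PT-S2/S3 and 1.77 in PT-S3-2.

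Among the widest ratios to PT-S1 was a group of receptor genes outside the lists. The widest, for the cell adhesion gene Cntnap5a, rested on 2 UMIs in PT-S1, where it averaged 0.000741 against 0.183 in PT-S2/S3. Vmn1r18, Vmn1r19 and Vmn1r20, vomeronasal receptor genes that neighbour each other on chromosome 6, averaged 1.25, 0.0822 and 0.320 in PT-S2/S3. In PT-S1 Vmn1r18 averaged 0.00593, a ratio of 211 (interval 130 to 370). Vmn1r19 had 0 UMIs in PT-S1, so its level was at least 74.0-fold higher in PT-S2/S3, set against 3 UMIs over PT-S1. All 3 were higher still in PT-S3-2, at 1.82, 0.134 and 0.447. These genes belong to a multigene family whose copies may share reads.

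Markers of other cell types were summed in PT-S2/S3 and its neighbours. All 9 such lists had a higher sum in PT-S3-1 than in PT-S2/S3. The summed averages of 6 thick ascending limb markers were 2.27 in PT-S2/S3, 1.88 in PT-S1, 2.24 in PT-S2, 2.04 in PT-S3-2 and 5.19 in PT-S3-1, against 64.4 in the TAL cluster. Distal convoluted and connecting tubule markers summed to 0.501 in PT-S2/S3 and 3.44 in PT-S3-1. Principal, intercalated, podocyte, endothelial, immune, fibroblast and thin limb markers ran from 0.0133 to 0.103 in PT-S2/S3, with no list member at 0, and from 0.0481 to 0.522 in PT-S3-1. Immune cell markers summed to 0.0376 in PT-S2/S3, 0.227 in PT-S3-2 and 0.286 in PT-S3-1, where Csf1r alone gave 0.207 and 0.215. Thin limb markers summed to 0.0203 in PT-S2/S3 and 0.0715 in PT-S1. Cycling markers summed to 0.0233 in PT-S2/S3. Mitochondrially encoded transcripts summed to 1.36 in PT-S2/S3 and 5.05 in PT-S3-1. Against PT-S3-1, 4 of the 5 marker genes of PT-S2/S3 were at least 2-fold higher, where 4.99% of 5231 genes were, and 8 of 8 mitochondrial transcripts with 100 UMIs were at least 2-fold lower, where 5.43% were. Over all genes 261 were higher and 284 lower than in PT-S3-1, and 185 and 315 after dividing by the median ratio, whose log2 was 0.14 (0.16 for PT-injury/repair). The part of other cell types' RNA in the contrast with PT-S3-1 was not tested. The 13 injured-tubule markers summed to 0.316 in PT-S2/S3 and 7.77 in PT-injury/repair, and Krt20, Sox9 and Ccl2 had 0 UMIs in PT-S2/S3. Against PT-injury/repair, 5 of the 5 PT-S2/S3 marker genes were higher, where 18.5% of 5947 genes were, and 7 of 7 injury markers with 100 UMIs were lower, where 12.6% were. The 5 are markers of PT-S2/S3 and all highest in it, so their counts here and against PT-S3-1 support nothing further.

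A second table gives 1 average for CT9w and 1 for Cis9w over proximal tubule nuclei, not split by cluster. It was scaled separately, so its levels are not set against those above, and it has 1 column per group, with no replicate check. It does not hold all nuclei behind the cluster averages: Slco1a1 had 690 UMIs in CT9w and 43 in Cis9w, against 1005 in PT-S2/S3 alone. In such a pool fewer nuclei of a type and less RNA per nucleus cannot be told apart. The share of each group within PT-S2/S3 is not given, so a gene that differs between groups could also lead a cluster through its mix of nuclei, and these cannot be told apart here.

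Most of the genes that led PT-S2/S3 by at least 1.5-fold were lower after cisplatin, and a smaller share of those that led by 1.2-fold. Of the 23, 19 had 100 UMIs in the higher pool, and 11 of these were at least 2-fold lower in Cis9w, where 1.69% of 8067 genes were, and 1 was at least 2-fold higher, where 2.55% were. Their median ratio of Cis9w to CT9w was 0.478, against 1.04 over all genes. At a 1.2-fold lead 19 of 88 genes, 21.6%, were at least 2-fold lower, and the median ratio was 0.804. By the same rule as for the 23 the ratio was 1.13 for 120 genes leading in PT-S1, with 1 lower and 6 higher, and 0.841 for 93 leading in PT-S3-2, with 7 lower and 9 higher. For 148 leading in PT-S3-1 it was 0.855, with 6 lower and 0 higher, and for the 4 leading in PT-S2 it was 1.48, with 1 lower and 1 higher. For 683 genes leading in PT-injury/repair it was 1.24, with 3 lower and 106 higher. Of the 30 genes at least 4-fold lower in Cis9w, 8 were highest in PT-S2/S3, 11 in PT-S3-2 and 8 in PT-S3-1. Of all 8161 genes with 100 UMIs in any proximal tubule cluster, 677, 1396 and 1503 were highest in these clusters. Of the 46 genes at least 4-fold higher in Cis9w, 34 were highest in PT-injury/repair, as were 2863 of the 8161. The difference between these sets was not tested.

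Slco1a1 averaged 0.377 in CT9w and 0.0141 in Cis9w, 26.8-fold lower (interval 19.7 to 37.4). Anks1b, a synaptic scaffold gene, averaged 0.301 and 0.0134, 22.4-fold lower (interval 16.3 to 31.6). The neighbours Nalcn and Gm33906 were both lower, with 0.0584 and 0.00392 for Nalcn and 0.180 and 0.0206 for Gm33906. Gm15441, antisense to Txnip, averaged 0.282 and 0.0203. Camk4 averaged 0.0704 and 0.0141. These 6 stood apart from the other 13, whose ratios, Dscaml1 aside, lay between 0.383 and 0.711. Dscaml1, an adhesion molecule gene, averaged 0.0311 in CT9w and 0.238 in Cis9w, 7.64-fold higher (interval 5.83 to 10.2).

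The 5 markers of the cluster split. Cyp4b1 averaged 6.56 in CT9w and 2.40 in Cis9w, Cyp2e1 averaged 0.595 and 0.229, and Dpys averaged 0.191 and 0.104. Slc22a6 was not lower, with 0.355 in CT9w and 0.404 in Cis9w. Against 1.69% of all genes lower and 2.55% higher, marker genes of the third segment were lower for 5 of 9 with 100 UMIs, among them Cyp7b1 with 2.43 and 0.388, and first-segment markers for 0 of 8. Second-segment markers, which include Cyp4b1 and Cyp2e1, were lower for 3 of 8 and higher for 0. Of 31 P450, flavin monooxygenase and carboxylesterase genes with 100 UMIs, 10 were lower and 6 higher. Of 12 male-biased kidney genes, 8 were lower and 0 higher, and of 7 female-biased genes 3 were higher and 2 lower. The male-biased list holds Slco1a1, Cyp2e1 and Cyp4b1, and shares Slc7a13, Cyp7b1, Acsm3 and Slc22a30 with the third-segment list. Injured-tubule markers were higher for 7 of 8. The part of these lists in the result for the leading genes was not tested. Trp53cor1, a noncoding RNA gene known as a p53 target, had 130 UMIs in PT-S2/S3 and 0 in PT-S3-1, and averaged 0.00328 in CT9w and 0.0539 in Cis9w.

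**Figure D4:**
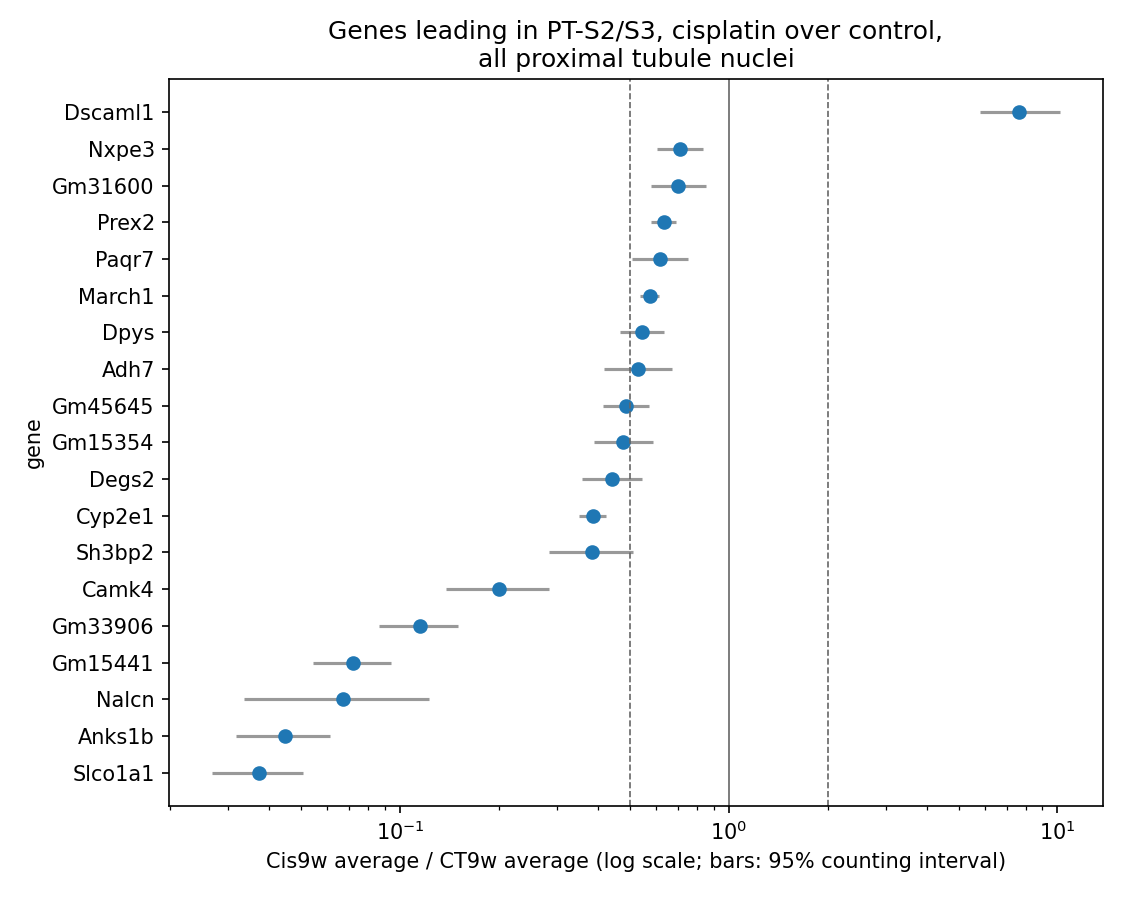
Cis9w average over CT9w average (log axis) for 19 genes leading in PT-S2/S3 with 100 UMIs in the higher pool; points are ratios, bars 95% counting intervals, the solid line a ratio of 1 and the dashed lines 2-fold. Of the 19 points, 18 lie left of 1 and Dscaml1 lies at 7.64.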

How the data were processed

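The authors' tables hold averages, a signal in size-factor-scaled UMIs per nucleus, per the file headers, with every column deposited at 1 total, 2008 in the cluster table and 2797 in the proximal tubule table. The submitters' processing notes name Cell Ranger 5.0.1 and mm10. How nuclei were filtered and clustered, and how doublets and free RNA were treated, the sources used here do not say. The deposited fold changes and p-values were not used. The name PT-injury/repair is from the upper of the cluster table's header lines; the column itself is headed with a cluster number.

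UMI sums were computed from these averages as whole multiples of 1 step, within 0.1 UMI for 100% of values in the cluster table and at least 99.99% in the other, and the recovery and intervals were tested on simulated data. A gene counted as higher or lower at a ratio of at least 2 with at least 100 UMIs in the higher column; 0 UMIs were set to 3. Correlations used log2(average + 0.01). Replicates and separate animals have no column of their own. An average of 3 UMIs is 0.000811 in PT-S2/S3, 0.00164 in CT9w and 0.000981 in Cis9w. Of 24468 cluster IDs, 24432 matched GENCODE M21, as did 21288 of the 21312 proximal tubule IDs. The symbol of March1, which the file holds as a date, was restored by ID.

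Genes were named by rule: the widest margins, the largest ratios to each neighbouring cluster, the highest averages, the markers, the extremes of each of 30 lists and of the cisplatin ratio. Trp53cor1 and the vomeronasal genes were named by this rule and were also looked up after values were seen. Genes outside the rule, among them Cdkn1a and Eda2r, were looked up as well, and their values are not reported here. Values of a few genes that the rule named are not reported here. The members and lists were chosen with earlier results of these data known. Python 3.11.15, numpy 2.4.6, pandas 2.3.3, scipy 1.17.1 and matplotlib 3.10.9 were used.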

Additional observations from a re-analysis of the deposited data

How the results depend on the processing

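No paired analysis was possible because no column carries a replicate number and no result comes from a test. The correlation with PT-S2 (0.964 to 0.978) and the median place (0.518 to 0.604) moved by less than 0.05 and by 0.1 or less under each setting tried; PT-S2 was the closest cluster under all of them, while the order of the next 3 was not kept. Dividing ratios by their median moved no count of genes by over 1.5 times. Counts depended on the limits by construction. With a minimum of 30 UMIs there were 760 higher than in PT-S1, 603 lower than in PT-S1, 329 higher than in PT-S2, 191 lower than in PT-S2, 640 higher than in PT-S3-2, 583 lower than in PT-S3-2, 490 higher than in PT-S3-1, 761 lower than in PT-S3-1, 1739 lower than in PT-injury/repair. With 300 UMIs there were 281 higher than in PT-S1, 183 lower than in PT-S1, 85 higher than in PT-S2, 56 lower than in PT-S2, 248 higher than in PT-S3-2, 172 lower than in PT-S3-2, 164 higher than in PT-S3-1, 65 lower than in PT-S3-1, 255 lower than in PT-injury/repair. At 3-fold there were 245 higher than in PT-S1, 181 lower than in PT-S1, 87 higher than in PT-S2, 41 lower than in PT-S2, 215 higher than in PT-S3-2, 162 lower than in PT-S3-2, 74 higher than in PT-S3-1, 165 lower than in PT-S3-1, 629 higher than in PT-injury/repair. With the whole 95% counting interval past 2-fold there were 102 higher than in PT-S2, 75 higher than in PT-S3-1, 710 higher than in PT-injury/repair. Against the other 5 proximal tubule clusters alone, 677 genes were highest. At 1.5-fold over all 16 clusters there were 11 genes, and with the lower bound of the ratio at 2 there was 1, so 3 of the 4 genes named at 2-fold are not past it beyond counting error. The 11 leading genes lower in Cis9w became 3 of 5 at a 2-fold lead, 19 of 88 at a 1.2-fold lead, and 17 of 29 without PT-S3-1 among the clusters compared, a setting chosen after seeing the data. The shallowest of the proximal tubule clusters, PT-S3-1, held 1334913 UMIs, which limits ratios of low genes there.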
